A study of Mus musculus with 16 samples.

Results

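The genes described here are 33 transcripts of the choroid plexus epithelium, measured by RNA sequencing in mouse hippocampus. They were taken from a list of symbols, all 33 were found among the 46603 gene IDs of the count table, and all 33 were among the 17055 genes that passed the filter on low counts. The symbols were chosen from genes of this tissue with earlier results of these data known, among them the levels of such genes in these same libraries, so their levels and their co-variation are given as a description, without a test. Each library is the hippocampus of 1 wild-type C57BL/6 mouse, an inbred laboratory strain, with no allele or transgene in any group. The groups are mice given beta-sitosterol, a sterol of plants that resembles cholesterol, at 100 mg/kg into the peritoneum and taken after 1 h (mice 6 to 9), vehicle mice taken after 1 h (mice 2 to 5), beta-sitosterol mice taken after 6 h (mice 17 to 20) and vehicle mice taken after 6 h (mice 11 to 14). The age of the mice is not given in the sources used here. The libraries hold between 24815581 and 31266644 counted reads, and levels are in CPM, read counts scaled to library size with TMM factors.

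The choroid plexus is a sheet of epithelial cells over leaky capillaries that hangs in the brain ventricles and borders the hippocampus. Its cells move sodium, chloride, bicarbonate and water into the ventricle to form cerebrospinal fluid, seal the route between cells with tight junctions, and secrete carrier proteins and growth factors into the fluid. Transthyretin is the best known of these products and is a standard sign of choroid plexus tissue in brain dissections. In whole-tissue RNA, fewer cells of a type and less RNA per cell cannot be told apart, and that holds for every value below.

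Most of these genes varied together from mouse to mouse. Promoter windows of 5 of them are shown first, as examples of genes that moved together: Kcne2, Kcnj13, Cldn2 and Mfrp, which were under 5% of their highest level in the same 4 libraries, and Otx2, a homeobox gene of this epithelium. They are RefSeq windows on GRCm38.p6, 5′ to 3′ on the strand of the gene, and run from 250 bases before to 50 bases after a transcription start. Capitals mark a match to a motif, searched on both strands, so that a match on the other strand stands as its reverse complement. The first motif is TAATCC, bound by Otx2 and related homeobox proteins. The other is TGTTTA, part of the core bound by forkhead proteins. No window shown holds both, and that of Kcne2 holds neither. Windows with a match are over-represented among those shown, and the shares over all member windows are given below. Otx2 has 4 windows and Kcne2 has 2, of which 1 each is shown. Of the Otx2 windows only the one shown holds TAATCC, and it lies within the span of the gene (48657677 to 48673819).
Kcne2, chr16:92292139-92292438, plus strand: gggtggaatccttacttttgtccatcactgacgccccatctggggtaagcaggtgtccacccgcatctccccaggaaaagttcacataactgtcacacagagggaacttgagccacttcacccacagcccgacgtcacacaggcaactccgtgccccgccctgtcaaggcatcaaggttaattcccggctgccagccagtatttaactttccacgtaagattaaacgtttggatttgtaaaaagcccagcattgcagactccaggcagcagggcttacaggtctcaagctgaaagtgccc
Kcnj13, chr1:87394680-87394979, minus strand: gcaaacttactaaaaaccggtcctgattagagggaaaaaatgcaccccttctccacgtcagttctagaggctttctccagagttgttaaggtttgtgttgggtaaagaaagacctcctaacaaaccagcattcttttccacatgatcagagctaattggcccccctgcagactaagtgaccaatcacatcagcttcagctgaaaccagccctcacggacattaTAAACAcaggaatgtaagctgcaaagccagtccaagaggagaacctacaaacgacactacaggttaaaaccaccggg
Cldn2, chrX:139800558-139800857, plus strand: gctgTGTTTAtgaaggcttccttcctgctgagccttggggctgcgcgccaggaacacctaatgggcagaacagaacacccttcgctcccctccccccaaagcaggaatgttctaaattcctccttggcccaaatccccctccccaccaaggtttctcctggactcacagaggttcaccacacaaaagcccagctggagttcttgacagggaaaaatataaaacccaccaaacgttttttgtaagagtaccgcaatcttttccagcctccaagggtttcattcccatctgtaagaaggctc
Mfrp, chr9:44101520-44101819, plus strand: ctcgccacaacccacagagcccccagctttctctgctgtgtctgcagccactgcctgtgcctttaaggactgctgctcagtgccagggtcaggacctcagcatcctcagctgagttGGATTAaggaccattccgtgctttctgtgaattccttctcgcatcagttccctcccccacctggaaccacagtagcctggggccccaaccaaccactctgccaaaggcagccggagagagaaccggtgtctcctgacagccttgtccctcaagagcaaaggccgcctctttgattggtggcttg
Otx2, chr14:48665060-48665359, minus strand: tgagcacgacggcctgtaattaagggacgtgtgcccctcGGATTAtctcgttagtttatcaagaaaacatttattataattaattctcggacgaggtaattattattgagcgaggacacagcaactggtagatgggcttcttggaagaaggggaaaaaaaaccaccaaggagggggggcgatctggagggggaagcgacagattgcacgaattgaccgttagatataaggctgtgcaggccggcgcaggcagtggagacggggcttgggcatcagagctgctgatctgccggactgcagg

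Of the 33 genes, 26 had at least 1 RefSeq window, 39 windows in all. TAATCC in either orientation was present in 4 of the 39 windows (10.3%), those of Ace, Igf2, Mfrp and Otx2, and in 7.06% of all 32851 windows. TGTTTA was present in 5 of the 39 (12.8%), which belong to 4 genes, Cldn2, Igfbp2, Kcnj13 and Prlr, and in 13.4% of all windows. The shares of member windows were thus close to those of all windows, and a match of 6 letters is a description, not a binding site.

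Ttr, the transthyretin gene, had the widest range of the 33 over the libraries. It stood at 1357, 2165, 2029 and 1034 CPM in the beta-sitosterol 1 h mice 6 to 9, against 4581, 6136, 1337 and 45.8 CPM in the vehicle 1 h mice 2 to 5. At 6 h it was 58.7, 686, 67.1 and 3801 CPM in the beta-sitosterol mice 17 to 20, against 2610, 3122, 1892 and 46.8 CPM in the vehicle mice 11 to 14. Vehicle 1 h mice 2 and 3 had the highest levels and mice 5, 14, 17 and 19 the lowest, and the groups overlapped at both times. No library of the beta-sitosterol 1 h group was among the low ones, whereas each other group held at least 1. The highest level was 134 times the lowest over all 16 libraries, and 8.95 times the lowest among the 12 libraries with Ttr above 100 CPM. The level jumped between these 12 and the other 4: the lowest of the 12 was 10.2 times the highest of the 4. The medians of the members in the comparisons below are therefore given with and without the 4 low libraries.

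**Figure D1:**
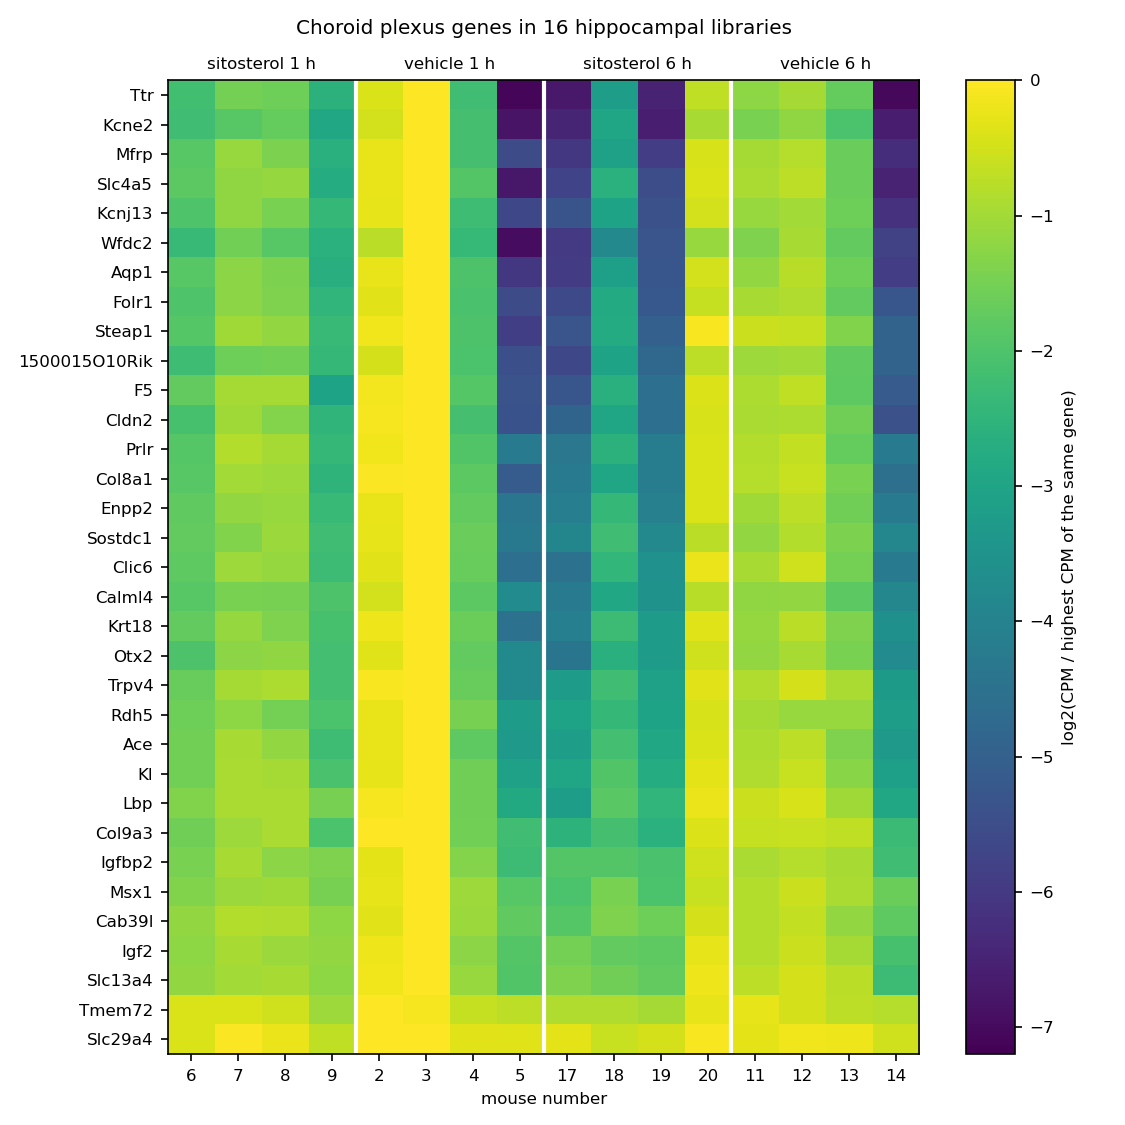
Level of each of the 33 genes (rows) in each of the 16 libraries (columns, by mouse number within the 4 groups), as log2 of its CPM over the highest CPM of the same gene, so that 0 is that highest library. Mice 5, 14, 17 and 19 are dark in the upper rows, with Ttr at 45.8 to 67.1 CPM, and the bottom rows, Tmem72 and Slc29a4, change little.

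Most of the set followed much the same order of mice. The highest library was vehicle 1 h mouse 3 for 30 of the 33 genes and vehicle 1 h mouse 2 for the other 3. The 4 lowest libraries were mice 5, 14, 17 and 19 for 29 of the 33. Within the 12 libraries with Ttr above 100 CPM, the Spearman correlation of a member with the mean log2 CPM of the other 32 had a median of 0.986, and it was at least 0.9 for 31 members. The same count came out over all 16 libraries, with Slc29a4 and Tmem72 below 0.9. The lowest Pearson coefficient was 0.884 over the 12 libraries and 0.847 over the 10 left without the pair farthest from the median of Ttr, beta-sitosterol 6 h mouse 18 and vehicle 1 h mouse 3. All genes of a library share its depth and scaling, and the members were listed with this pattern known. Among the 17022 genes tested that are not members, 182 (1.07%) reached 0.9 in the same 12 libraries.

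The summed level of the 33 genes ranged from 561 CPM in vehicle 1 h mouse 5 to 11288 CPM in vehicle 1 h mouse 3. Ttr made up 38.1% to 54.4% of that sum in the 12 libraries and 8.18% to 10.5% in the 4 low ones. Per kilobase of exon, the median level over the 12 libraries was highest for Ttr (1769 CPM per kb), then for Enpp2 (247 CPM per kb), 1500015O10Rik (29.1 CPM per kb), Igfbp2 (24.8 CPM per kb) and Igf2 (24.8 CPM per kb), and lowest for Col8a1 (1.84 CPM per kb). In the 4 low libraries the order was another one. Ttr (44.5 CPM per kb) and Enpp2 (30.0 CPM per kb) lay close together, followed by Slc29a4 (15.4 CPM per kb) and Igf2 (13.2 CPM per kb), with 1500015O10Rik at 2.43 CPM per kb. The lengths are unions of all annotated exons, which lowers the value of genes with long untranslated ends.

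Genes grouped as transport number 9 in the set, among them channels and carriers of ions and water. Aqp1, the water channel of the apical membrane (chromosome 6, 55336432 to 55348555, GRCm38), had 11.8, 17.9, 15.9 and 6.81 CPM in the beta-sitosterol 1 h mice, against 36.3, 42.9, 10.6 and 0.661 CPM in the vehicle 1 h mice. The 6 h values were 0.690, 4.92, 1.11 and 30.4 CPM in the beta-sitosterol mice, against 19.3, 25.1, 14.3 and 0.729 CPM in the vehicle mice. The order of mice was nearly that of Ttr, and the groups overlapped at both times. Kcne2, a beta subunit of potassium channels (chromosome 16, 92292389 to 92298129), had 8.83, 11.3, 12.6 and 5.54 CPM in the beta-sitosterol 1 h mice, against 29.1, 41.1, 9.45 and 0.367 CPM in the vehicle 1 h mice. It had 0.472, 5.34, 0.422 and 21.6 CPM in the beta-sitosterol 6 h mice, against 14.9, 18.0, 9.94 and 0.405 CPM in the vehicle 6 h mice. In the 4 low libraries both genes were close to nothing, with as few as 10 reads for Kcne2 and 18 for Aqp1.

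Kcnj13, an inwardly rectifying potassium channel whose exons overlap Gigyf2 on the opposite strand by 623 bases, ranged from 0.405 to 29.3 CPM, and Slc4a5, a sodium bicarbonate cotransporter, from 0.440 to 46.9 CPM. Steap1, a member of a family of metal reductases, ranged from 0.147 to 8.52 CPM. Clic6, of the chloride intracellular channel family, and Trpv4, a calcium-permeable channel that responds to cell swelling, ranged from 5.03 to 119 CPM and from 1.36 to 18.6 CPM. The remaining transporters varied less. Slc13a4, a sodium and sulfate cotransporter, ranged from 9.19 to 43.8 CPM. Slc29a4, a monoamine transporter also found in neurons (chromosome 5, 142692512 to 142722490), ranged only from 36.6 to 58.6 CPM, with its lowest value in beta-sitosterol 1 h mouse 9 and not in a library low in Ttr.

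**Figure D2:**
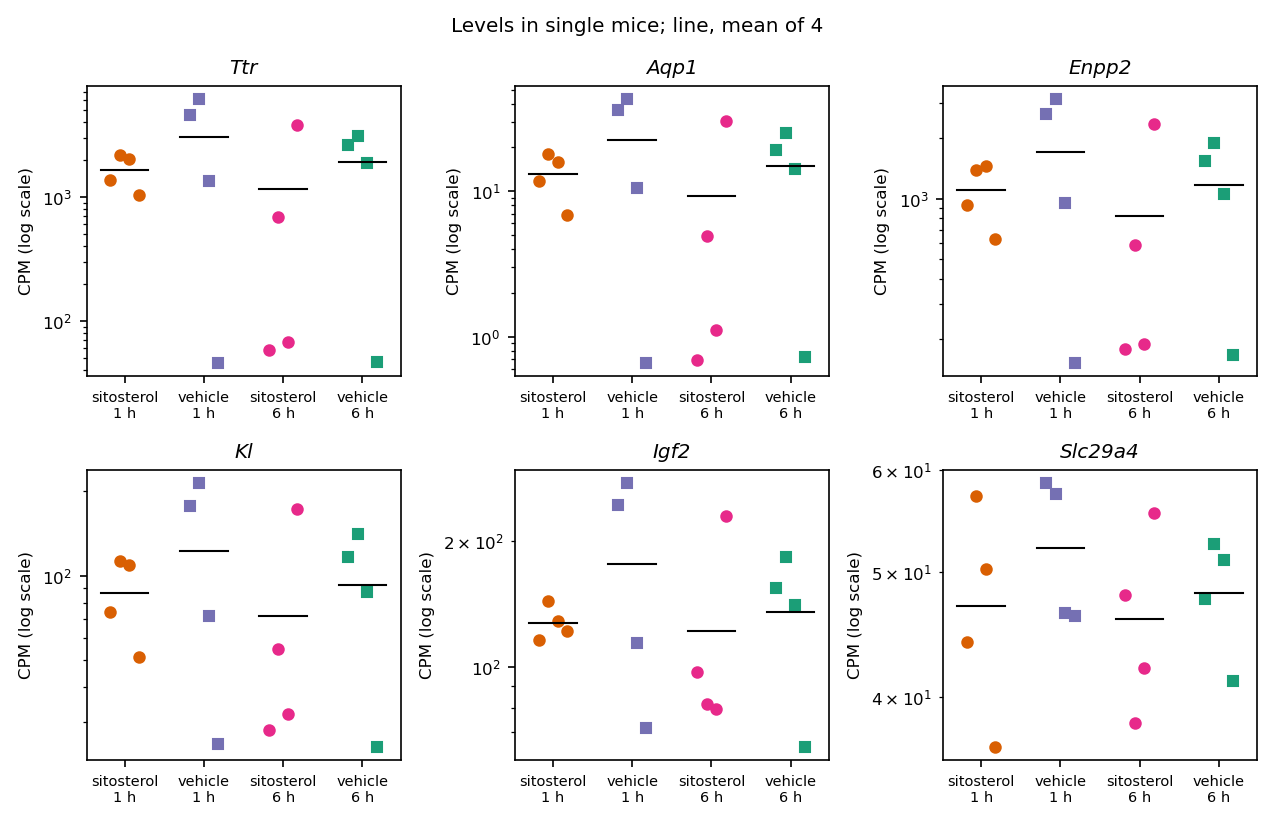
CPM on log axes, each with its own range, for Ttr, Aqp1, Enpp2, Kl, Igf2 and Slc29a4 in every mouse (points, circles for beta-sitosterol and squares for vehicle) with the group mean (line, n = 4). Groups overlap for each of the 6 genes, and the gap between low and high mice narrows from Ttr (45.8 to 6136 CPM) to Slc29a4 (36.6 to 58.6 CPM).

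Secreted products number 9. Enpp2, which codes for autotaxin, an enzyme that makes the signalling lipid lysophosphatidic acid and is also made by oligodendrocytes (chromosome 15, 54838901 to 54952892), had 930, 1395, 1456 and 632 CPM in the beta-sitosterol 1 h mice, against 2635, 3129, 948 and 152 CPM in the vehicle 1 h mice. The 6 h values were 179, 588, 189 and 2343 CPM in the beta-sitosterol mice, against 1537, 1894, 1058 and 167 CPM in the vehicle mice. The mice rank much as for Ttr, but the low libraries still held 152 to 189 CPM. Igf2, a growth factor of the plexus and the meninges (chromosome 7, 142650766 to 142666816), had 116, 143, 129 and 122 CPM in the beta-sitosterol 1 h mice, against 243, 274, 114 and 71.4 CPM in the vehicle 1 h mice. At 6 h it had 97.3, 81.8, 79.3 and 228 CPM in the beta-sitosterol mice, against 154, 183, 140 and 64.6 CPM in the vehicle mice. Here beta-sitosterol 6 h mouse 18, with 686 CPM of Ttr, lay below mouse 17, with 58.7 CPM of Ttr.

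Igfbp2, a binding protein of insulin-like growth factors, ranged from 18.4 to 88.0 CPM in close step with Igf2. Sostdc1, an inhibitor of BMP and Wnt signalling, ranged from 1.91 to 37.0 CPM. F5, coagulation factor V, ranged from 2.24 to 92.0 CPM, and Lbp, the lipopolysaccharide-binding protein, from 3.81 to 35.0 CPM. 1500015O10Rik, which RefSeq names Ecrg4 and which codes for a secreted peptide precursor, ranged from 1.56 to 77.5 CPM. Wfdc2, a secreted protein with a WAP domain, had 2 reads in vehicle 1 h mouse 5, 4 in beta-sitosterol 6 h mouse 17, 6 in mouse 19 and 4 in vehicle 6 h mouse 14, and 240 reads in vehicle 1 h mouse 3.

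Receptors and other membrane proteins number 6. Folr1, folate receptor alpha, which carries folate into the fluid, had 13.4, 22.5, 20.4 and 9.74 CPM in the beta-sitosterol 1 h mice, against 43.0, 53.3, 12.7 and 1.14 CPM in the vehicle 1 h mice. After 6 h, Folr1 had 1.09, 7.70, 1.42 and 34.6 CPM in the beta-sitosterol mice, against 27.5, 29.3, 15.96 and 1.38 CPM in the vehicle mice. Its rank order over the 12 libraries was that of Ttr. Kl, which codes for klotho, a co-receptor of the hormone FGF23 (chromosome 5, 150952607 to 150993817), averaged 86.9 ± 29.7 CPM in the beta-sitosterol 1 h mice and 122 ± 88.2 CPM in the vehicle 1 h mice (SD, n = 4 each). At 6 h it averaged 72.0 ± 68.4 CPM in the beta-sitosterol mice and 92.3 ± 50.1 CPM in the vehicle mice (SD, n = 4 each), so that at each time the SD of the vehicle mice exceeded the distance between the means. In the low libraries Kl held 24.5 to 32.2 CPM.

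Prlr, the prolactin receptor, ranged from 3.60 to 72.7 CPM and Ace, the angiotensin-converting enzyme, from 12.0 to 122 CPM. Mfrp, a membrane protein related to frizzled receptors, ranged from 0.810 to 61.5 CPM. Exons of Mfrp share 1589 bases with C1qtnf5 on the same strand, so that reads of this pair cannot be assigned with certainty. Tmem72, a transmembrane protein (chromosome 6, 116679063 to 116716913), ranged only from 75.6 to 157 CPM.

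Genes of the tight junction, matrix and cytoskeleton number 4. Cldn2, a claudin that forms pores for cations and water between epithelial cells, ranged from 0.932 to 39.9 CPM. Krt18, a keratin of simple epithelia, ranged from 0.477 to 10.6 CPM. The collagen genes Col8a1 and Col9a3 ranged from 0.844 to 29.3 CPM and from 11.6 to 69.5 CPM. The 5 intracellular members include Otx2, a homeobox transcription factor needed for the choroid plexus to form (chromosome 14, 48657677 to 48673819). It had 6.41, 10.9, 11.5 and 5.85 CPM in the beta-sitosterol 1 h mice, against 20.3, 26.0, 7.89 and 1.91 CPM in the vehicle 1 h mice. After 6 h, Otx2 had 1.23, 4.23, 2.76 and 18.3 CPM in the beta-sitosterol mice, against 11.7, 13.7, 9.46 and 1.98 CPM in the vehicle mice. Msx1, another homeobox factor, ranged from 5.41 to 22.4 CPM, Calml4, a calmodulin-like protein, from 1.23 to 23.8 CPM, Cab39l, a scaffold of the LKB1 kinase, from 25.4 to 94.3 CPM, and Rdh5, a retinol dehydrogenase, from 1.98 to 18.5 CPM.

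The members differed most in what was left where Ttr was low. Each gene's level in the 4 low libraries was set against its own highest library, with bounds of 5% and 25% chosen after the values were seen. In 12 genes all 4 libraries lay under 5%: Ttr, Kcne2, Mfrp, Slc4a5, Kcnj13, Wfdc2, Aqp1, Folr1, Steap1, 1500015O10Rik, F5 and Cldn2. In 14 genes the highest of the 4 lay between 5% and 25%, among them Enpp2 (4.87% to 6.03%), Otx2 (4.75% to 10.6%), Kl (11.5% to 15.1%) and Col9a3 (16.6% to 21.9%). In 7 genes it lay above 25%, and these were Igfbp2, Msx1, Cab39l, Igf2, Slc13a4, Tmem72 and Slc29a4. Tmem72 kept 51.0% to 60.3% and Slc29a4 70.2% to 81.8% of their highest level there. The 12 genes of the first kind, Ttr among them, were low in the 4 libraries by the bound that defines them. Ttr, at 45.8 to 67.1 CPM, still had the highest level per kilobase of all members there. Against the label of choroid plexus epithelium, more than 50% of the highest Tmem72 and Slc29a4 level was present there.

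**Figure D3:**
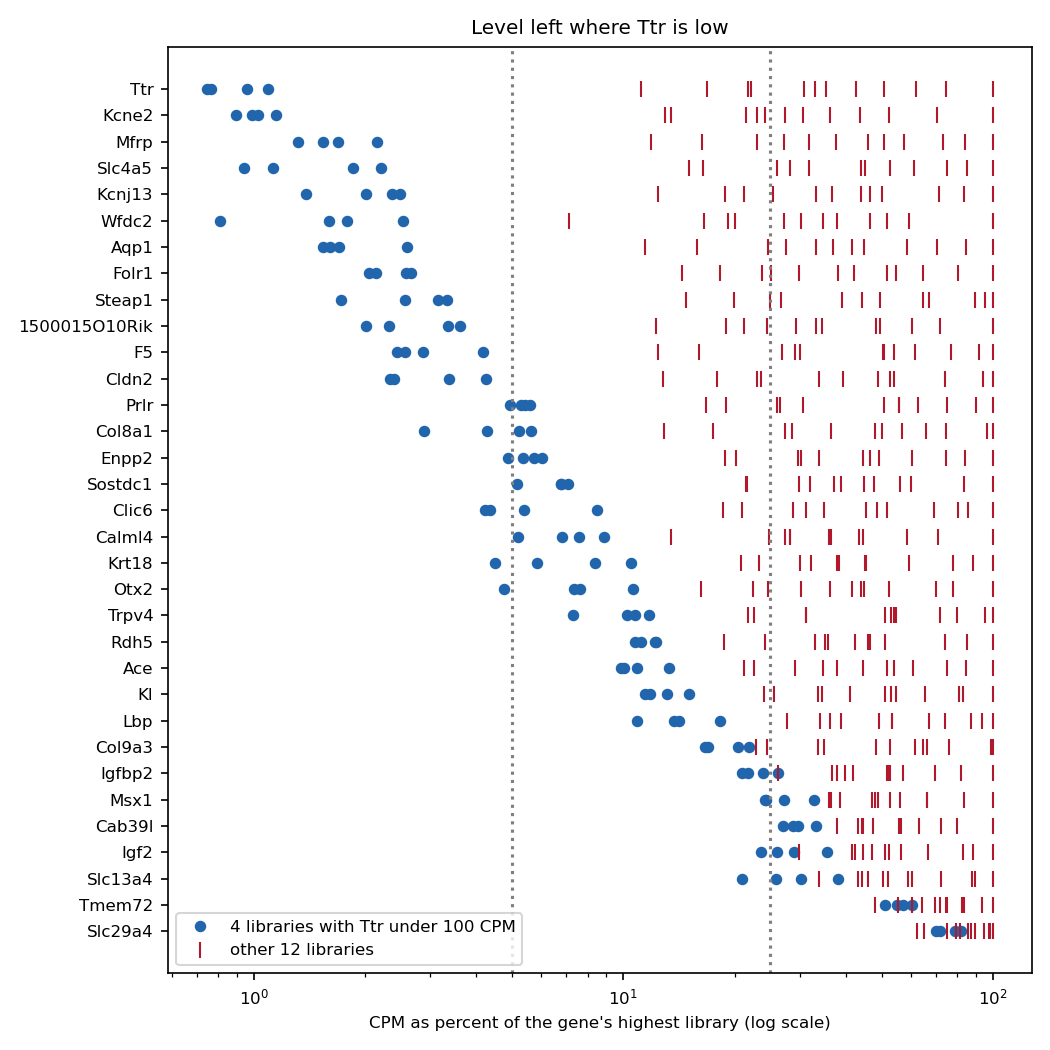
For each gene (rows), its CPM as a percent of its own highest library on a log axis, in the 4 libraries with Ttr under 100 CPM (blue circles) and the other 12 (red ticks); dotted lines mark 5% and 25%. Kcne2 and Ttr sit near 1% in the 4 libraries, Kl at 11.5% to 15.1% and Slc29a4 at 70.2% to 81.8%.

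Ratios to Ttr were even for some members and not for others. Kcnj13 had 4.65 to 5.96 reads per 1000 Ttr reads over the 12 libraries, a coefficient of variation of 7.16%, while Ttr itself changed 8.95-fold. 1500015O10Rik (7.35%), Aqp1 (7.66%), Folr1 (8.22%) and Mfrp (8.96%) were next. At the other end, the 7 genes that kept over 25% of their highest level had coefficients of 30.0% (Igfbp2) to 49.96% (Slc29a4). In the 4 low libraries 30 of the 32 other members had more reads per Ttr read than in any of the 12, among them Wfdc2 with only 2 to 6 reads there. Those 4 libraries were picked for low Ttr, the divisor, which had the widest range of all members. Higher ratios there thus follow in part from that choice. Kcnj13 had 8.65 to 12.8 reads per 1000 Ttr reads in the 4, Folr1 had 18.6 to 29.4, against 8.44 to 11.2 in the 12, and 1500015O10Rik had 26.6 to 55.4, against 11.9 to 14.3. The ranges overlapped for Kcne2 and Slc4a5. Kcne2 had 5.21 to 7.78 reads per 1000 Ttr reads in the 12 libraries and 6.29 to 8.65 in the 4 low ones. For Enpp2 the ratio was 510 to 858 in the 12 libraries and 2812 to 3567 in the 4 low ones. F5 was the least even (18.7%) of the 12 genes under 5% of their highest level in the 4 low libraries. It had 11.0 reads per 1000 Ttr reads in beta-sitosterol 1 h mouse 9, against 14.2 to 23.0 in the other 11 libraries. In the same mouse Slc4a5 had 6.81 reads per 1000 Ttr reads, the lowest of the 12, whose highest was 11.2.

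**Figure D4:**
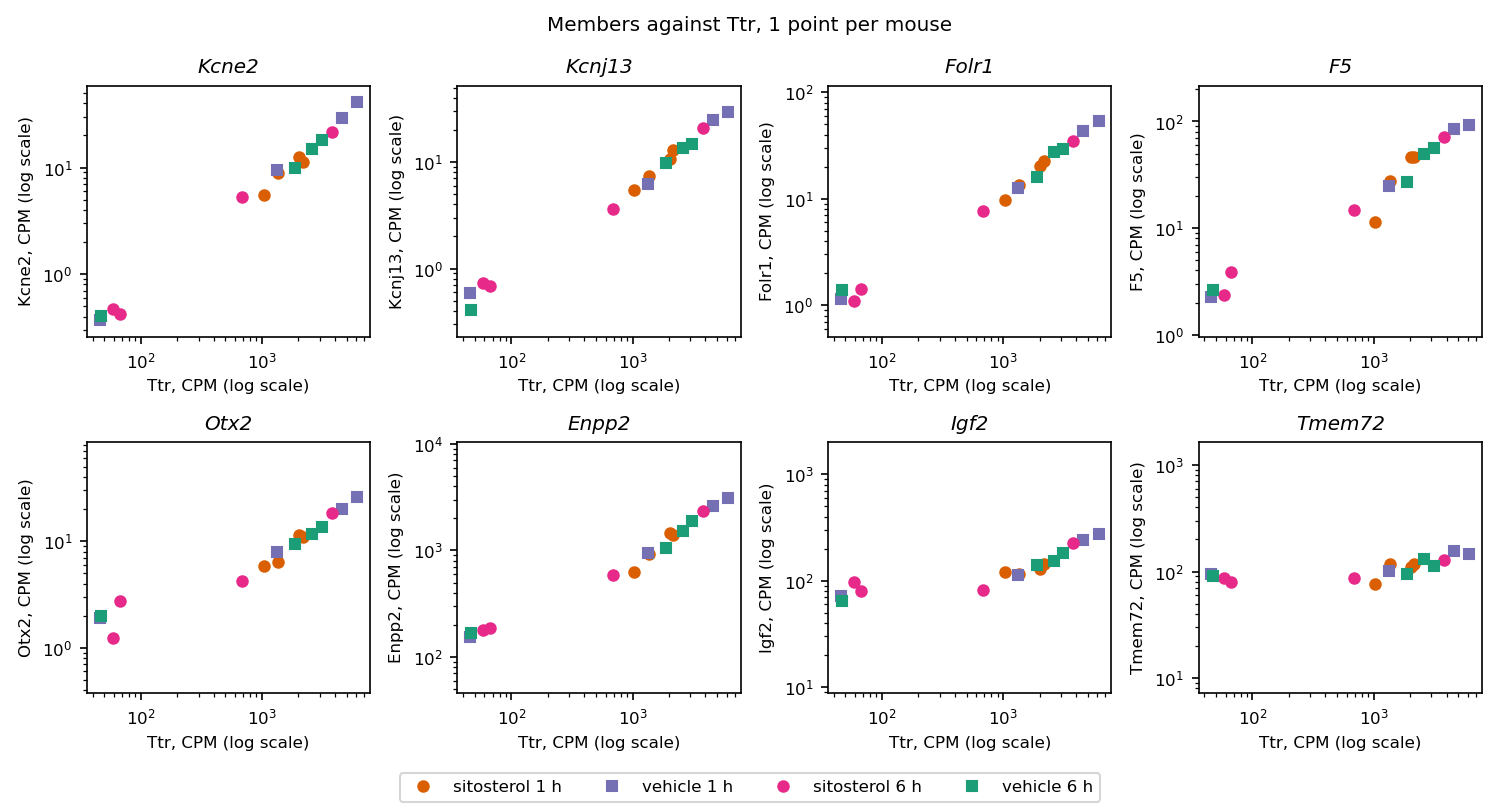
CPM of 8 members against CPM of Ttr, log axes, 1 point per mouse, circles for beta-sitosterol and squares for vehicle. Kcne2, Kcnj13, Folr1 and F5 are lowest in the 4 libraries lowest in Ttr, with Folr1 at 18.6 to 29.4 reads per 1000 Ttr reads there and 8.44 to 11.2 elsewhere, Enpp2 levels off at 152 to 189 CPM, and Tmem72 stays between 75.6 and 157 CPM.

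Beta-sitosterol against vehicle was tested at each time, and no member passed. At 1 h, with the quasi-likelihood F-test of edgeR and p-values adjusted by Benjamini-Hochberg over all genes, 0 of the 33 members were below 0.05, where 0% of the 17055 genes were. Unadjusted p was under 0.05 for 0 of 33 members and for 10.2% of all genes. All 33 log2 fold changes were negative, with a median of -0.67, against 51.3% negative and a median of -0.0039 over all genes. The members move with the same mice, so that 33 negative signs do not count as 33 observations. Ttr had a log2 fold change of -0.88 (SE 1.44, edgeR adjusted p = 0.859), and the smallest p was that of Msx1, at -0.60 (SE 0.399, edgeR adjusted p = 0.616). Msx1 had 8.65, 10.6, 10.9 and 8.08 CPM in the beta-sitosterol 1 h mice, against 18.7, 22.4, 10.8 and 6.09 CPM in the vehicle 1 h mice, and these overlap. The median of the members was -0.18 without vehicle 1 h mouse 3, -0.36 without vehicle 1 h mouse 2 and -1.02 without vehicle 1 h mouse 5.

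At 6 h, 0 of the 33 genes were called, again with 0% of all genes, and unadjusted p was under 0.05 for 0 members and for 12.1% of all genes. The log2 fold changes were again all negative, with a median of -0.58, against 53.9% negative and a median of -0.014 over all genes. Ttr had -0.73 (SE 1.44, edgeR adjusted p = 0.863), and Msx1 again had the smallest p, at -0.46 (SE 0.405, edgeR adjusted p = 0.669). The beta-sitosterol 6 h group has 2 of its 4 mice among the low libraries, against 1 of 4 in the vehicle 6 h group. Without the 4 low libraries the median was -0.10 at 6 h, with 30 negative and 3 positive, and -1.02 at 1 h, with 33 negative, and no member was called at either time. That fit kept only mice 18 and 20 (686 and 3801 CPM of Ttr) in the beta-sitosterol 6 h group. It kept vehicle mice 11, 12 and 13 at 6 h and vehicle mice 2, 3 and 4 at 1 h. At 1 h 4 of 33 members then had an unadjusted p under 0.05, against 16.5% of all genes, and at 6 h 0 of 33, against 7.71%. Leaving out single beta-sitosterol mice gave a 6 h median of -1.76 (mouse 20), -0.21 (mouse 17) and -0.25 (mouse 19). Leaving out single vehicle mice gave -0.31 (mouse 12), -0.36 (mouse 11) and -0.95 (mouse 14).

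**Figure D5:**
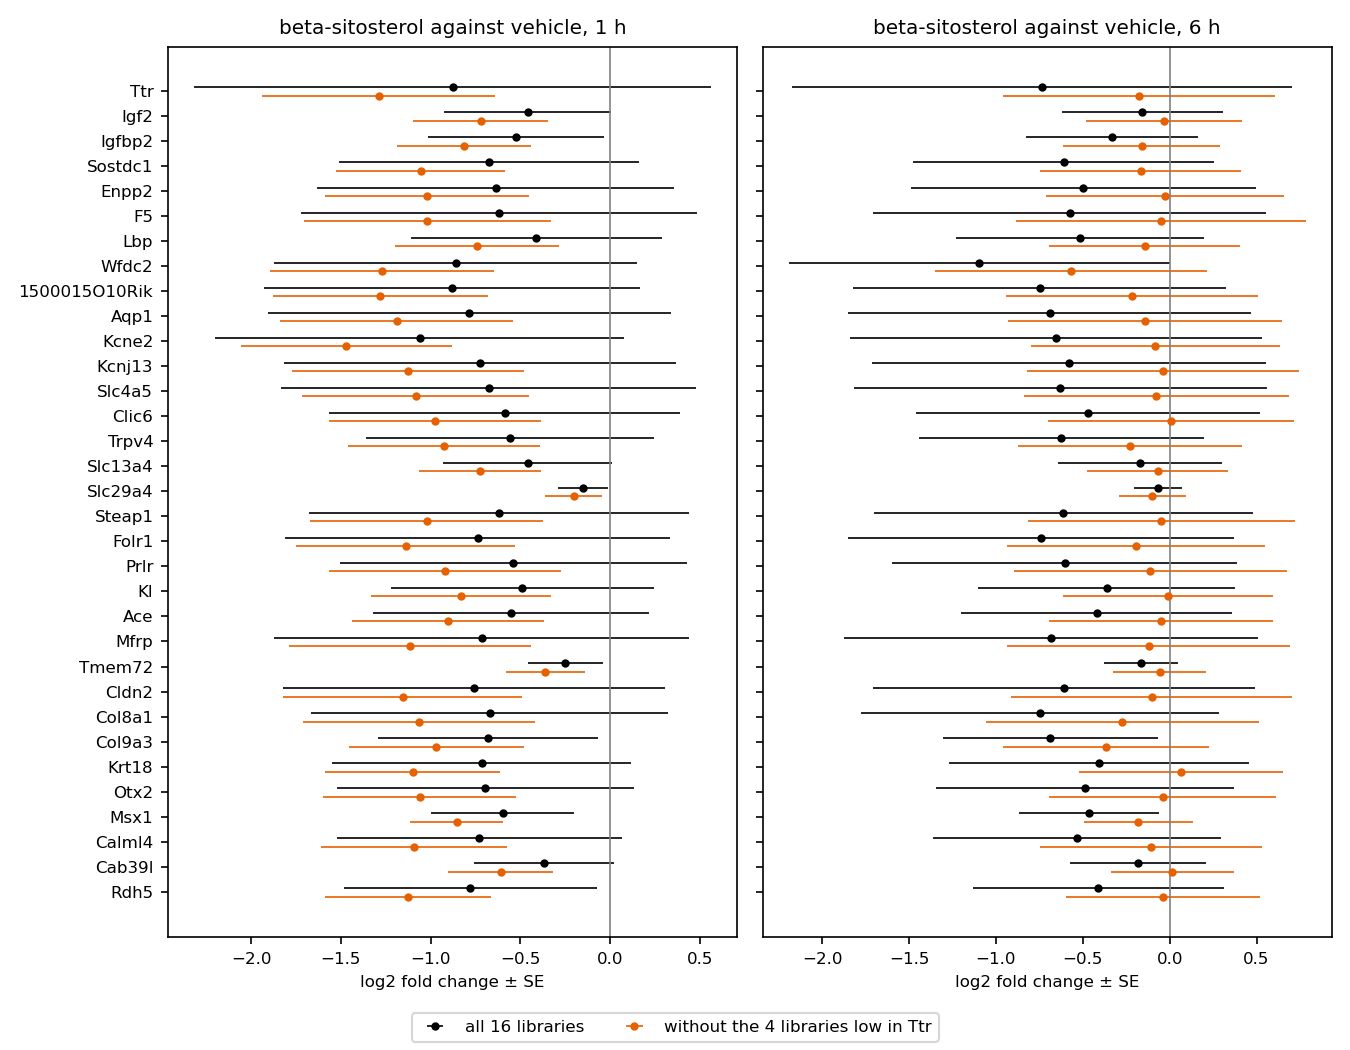
Log2 fold change of beta-sitosterol over vehicle with its standard error (bars) for the 33 genes at 1 h (left) and 6 h (right), from all 16 libraries (black) and without the 4 libraries with Ttr under 100 CPM (orange). All 33 black points lie below 0 at both times, the standard error of Ttr is 1.44 at each time, and the median moves to -1.02 at 1 h and to -0.10 at 6 h without the 4 libraries. Without them the beta-sitosterol 6 h group is mice 18 and 20 only.

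Averaged over both times, 0 of the 33 members were called by the edgeR test, where 13 genes (0.0762% of all) were. Unadjusted p was under 0.05 for 0 members and for 20.5% of all genes, and 33 members were negative, against 53.9% of all genes. The median of the members was -0.60, Ttr had -0.81 (SE 1.02, edgeR adjusted p = 0.689), and the smallest p was that of Msx1, at -0.53 (SE 0.284, edgeR adjusted p = 0.315). The median was -1.25 without beta-sitosterol 6 h mouse 20 and -0.38 without vehicle 1 h mouse 3. Without the 4 low libraries it was -0.55, with 33 negative and 0 members called. Unadjusted p was then under 0.05 for 1 member, Msx1, and for 19.9% of all genes. With the log2 CPM of Ttr in each library as a covariate, chosen after the data were seen, Msx1 was the 1 member called of the 32 other than Ttr, at -0.37 (SE 0.0871, edgeR adjusted p = 0.0404), beside 440 genes in all (2.58%). In that fit unadjusted p was under 0.05 for 2 of the 32 members over both times, against 21.8% of all genes. It was so for 12 at 1 h (14.3% of all genes), 0 at 6 h (12.1%) and 6 for the difference of the effects (3.58%). For 6 h against 1 h it was so for 2 in vehicle mice (12.8%) and 2 in beta-sitosterol mice (5.83%). The members move together, so these are not separate observations. Msx1 had -0.56 (SE 0.119, edgeR adjusted p = 0.156) at 1 h and -0.18 (SE 0.127, edgeR adjusted p = 0.583) at 6 h. With the same covariate and without the 4 low libraries it had -0.17 (SE 0.0702, edgeR adjusted p = 0.318), and was not called. Msx1 kept 24.2% to 32.8% of its highest level in the 4 low libraries, where Ttr kept 0.747% to 1.09%, and the part of that unequal change in the call was not tested.

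A difference of the beta-sitosterol effect between the times was called for 0 of 33 members, with 0% of all genes. Unadjusted p was under 0.05 for 0 members and for 1.92% of all genes, and 7 members were negative, against 53.2% of all genes. For Ttr the 6 h effect minus the 1 h effect was 0.14 (SE 2.02, edgeR adjusted p = 1.000), a standard error that leaves a wide range of differences undetectable, and the smallest p was that of Igf2, at 0.30 (SE 0.656, edgeR adjusted p = 1.000). The median of the members was 0.13. Without the 4 low libraries it was 0.94, with 33 positive and 0 negative, and Ttr had 1.11 (SE 1.01, edgeR adjusted p = 1.000), again with 0 members called. Mice 18 and 20 were then the whole beta-sitosterol 6 h group. With 1 mouse left out of the 16, the median was -1.14 without beta-sitosterol 6 h mouse 20 and 0.46 without vehicle 1 h mouse 5. Setting 6 h against 1 h, 0 of 33 were called in beta-sitosterol mice and 0 of 33 in vehicle mice, again with 0% of all genes in each. In beta-sitosterol mice unadjusted p was under 0.05 for 0 members and for 6.97% of all genes, and 33 members were negative, against 53.2% of all genes. In vehicle mice the shares were 0 members and 10.6% of all genes, and 33 members were negative, against 48.7% of all genes. In beta-sitosterol mice the median at 6 h relative to 1 h was -0.39, Ttr had -0.51 (SE 1.44, edgeR adjusted p = 0.961), and Wfdc2, with the smallest p, had -0.78 (SE 1.12, edgeR adjusted p = 0.910). Without the 4 low libraries the median there was 0.37, the opposite sign, with 32 of 33 positive. It then rested on mice 18 and 20 alone at 6 h, with Ttr at 0.45 (SE 0.730). With 1 mouse left out of the 16, the median was -1.77 without mouse 20 and -0.076 without mouse 17. In vehicle mice the median was -0.52, Ttr had -0.66 (SE 1.44, edgeR adjusted p = 0.889), and Cab39l, with the smallest p, had -0.41 (SE 0.389, edgeR adjusted p = 0.726). That median was -0.92 without vehicle 1 h mouse 5 and -0.056 without vehicle 1 h mouse 3, where Ttr had -1.07 and -0.052. Without the 4 low libraries it was -0.54, with 33 negative and 0 members called. These comparisons share groups with those of beta-sitosterol against vehicle. The spread between mice of 1 group limits all of them: the pooled SD of the members' mean log2 CPM within groups was 1.44.

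Other genes of choroid plexus function were examined in lists that leave out the members. Of 15 genes of ion transport in fluid secretion, 4 reached a Spearman correlation of 0.9 with the members over the 12 libraries, with a list median of 0.308. They were Slc4a2, an anion exchanger (29.7 to 106.5 CPM over the 16 libraries), Slc12a2, the sodium, potassium and chloride cotransporter (75.8 to 155 CPM), and the carbonic anhydrases Car12 (32.9 to 98.3 CPM) and Car14 (6.40 to 24.5 CPM). Atp1b1, a beta subunit of the sodium pump that neurons also express strongly, did not follow (-0.545). Of 18 genes of the blood to fluid barrier, 4 reached 0.9, with a list median of 0.769, among them Cldn1, a claudin (1.17 to 17.6 CPM), Slco1a5, an organic anion transporter (0.110 to 2.73 CPM), and Abcc4, an export pump (14.1 to 20.0 CPM). In each of the 6 comparisons 0 genes of either list were called, where 0.0762% of all genes were over both times and 0% in every other comparison. For beta-sitosterol against vehicle, unadjusted edgeR p was under 0.05 for 2 of 15 ion transport genes at 1 h, 2 at 6 h and 6 over both times. It was so for 0, 2 and 1 of the 18 barrier genes, and for 10.2%, 12.1% and 20.5% of all genes. For beta-sitosterol against vehicle the median log2 fold changes were -0.043 at 1 h and -0.11 at 6 h for the ion transport list and -0.10 and -0.12 for the barrier list.

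Of all genes outside the set, 10 were named by the height of their Spearman correlation with the members over the 16 libraries, from 0.982 to 0.994. They were Slc2a12, Tcn2, Epn3, Drc7, Cul4b, Sulf1, Cldn1, Sema3b, Steap2 and Slc4a2. Slc2a12, a sugar transporter, ranged from 3.85 to 35.6 CPM, Sulf1, a sulfatase of heparan sulfate, from 4.04 to 78.2 CPM, and Tcn2, the vitamin B12 carrier transcobalamin, from 18.5 to 43.5 CPM. Sema3b, a secreted semaphorin, ranged from 2.24 to 20.1 CPM and Steap2, of the same family as Steap1, from 9.25 to 45.0 CPM. Their correlations within the 12 libraries were 0.965 to 0.993.

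Markers of neighbouring cells were read beside the set. Ependymal cells line the ventricle, and all 10 of their markers were tested, with a summed level of 46.7 to 53.3 CPM in beta-sitosterol 1 h mice, 31.02 to 75.2 CPM in vehicle 1 h mice, 21.2 to 66.6 CPM in beta-sitosterol 6 h mice and 33.5 to 66.9 CPM in vehicle 6 h mice. That sum was 21.2 to 33.5 CPM in the 4 low libraries and 41.3 to 75.2 CPM in the other 12, so it moved with the members (Spearman 0.825 over the 12), and its part in their levels was not tested. Foxj1, the master gene of motile cilia, was at 7.01 to 10.02 CPM in the 4 and 13.4 to 26.1 CPM in the 12. The 12 markers of meningeal fibroblasts showed no such order: their sum was 109 to 171 CPM in beta-sitosterol 1 h mice, 113 to 148 CPM in vehicle 1 h mice, 139 to 163 CPM in beta-sitosterol 6 h mice and 121 to 143 CPM in vehicle 6 h mice, with a Spearman correlation of -0.126. Igf2, Igfbp2 and Slc13a4, which the meninges also express, had correlations of -0.063, -0.112 and -0.077 with that sum over the 12 libraries. With the mean of the members they had 0.972, 0.972 and 0.965. Those correlations do not cover the 4 low libraries. There mouse 17 was highest in Igf2 (97.3 CPM), Igfbp2 (23.1 CPM), Slc13a4 (16.7 CPM) and the meningeal sum (163 CPM). Mouse 14, next in the sum (143 CPM), was lowest in Igf2 (64.6 CPM) and Slc13a4 (9.19 CPM). The part of the meninges in these levels was not tested. No marker of these lists was at 0 in any library.

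Endothelial markers (8 of 8 tested, 165 to 209 CPM summed) and markers of border macrophages (7 of 7, 10.7 to 21.3 CPM) had Spearman correlations of 0.070 and -0.056 with the members over the 12 libraries. Plvap, a marker of the leaky capillaries found in the plexus, was at 4.80 to 7.32 CPM, with a correlation of 0.336. Markers of hippocampal neurons were present in every library: 7 of 7 markers, among them Prox1 of the dentate gyrus (99.4 to 197 CPM) and Fibcd1 of area CA1 (155 to 222 CPM), summed to 609 to 987 CPM, with a correlation of -0.503 with the members. Of 7 markers of thalamus and habenula 6 were tested, with 108 to 171 CPM summed and a correlation of 0.538 for the sum. The median over the single genes was 0.175. Prkcd was highest (0.650), Tcf7l2 was next (0.308) and Nwd2 was lowest (-0.259). Pou4f1, a defining gene of the habenula, was at 0 in at least 1 library. The endothelial sum was 190 to 209 CPM in the 4 libraries low in Ttr and 165 to 187 CPM in the other 12, which do not overlap. The neuronal sum was 863 to 987 CPM in the 4 and 609 to 908 CPM in the 12. The part of either in the members' levels was not tested, and all levels share a fixed total per library. In each of the 6 comparisons 0 genes of these marker lists were called, where 0.0762% of all genes were over both times and 0% in every other comparison. At 1 h and 6 h the median log2 fold changes of beta-sitosterol against vehicle were -0.17 and -0.34 for ependyma, 0.010 and 0.30 for meningeal fibroblasts, and -0.11 and -0.035 for endothelium. They were -0.078 and 0.26 for border macrophages, 0.14 and 0.14 for hippocampal neurons, and -0.30 and 0.088 for thalamus and habenula.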

How the data were processed

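Hippocampi were dissected, RNA of sufficient integrity (RIN 7 or above) was sequenced, and libraries were of the TruSeq mRNA type, per the labels. The deposited table holds raw counts, whole reads per Ensembl gene and mouse, as the authors made them. The submitters' processing notes list CASAVA 1.8.2, then cutadapt without a version, TopHat2 2.0.10, DESeq2 1.6.3, HTSeq 0.6.1p1 and the build GRCm38, with no step tied to a tool. Neither annotation release nor strand setting is given in the sources used here, so a gene and an antisense partner may share reads. Of the 33 members, 11 have exons overlapping another gene in GENCODE M21, 5 on the same strand (Igf2, Prlr, Mfrp, Otx2 and Rdh5) and 9 on the opposite one. Symbols were matched for 46005 of 46603 IDs. The authors' normalized table was not used.

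Counts were tested in R 4.3.3 with edgeR 4.0.16: filterByExpr (minimum count 10, minimum total 15), which kept 17055 genes and 99.9% of reads, TMM scaling, and a robust quasi-likelihood fit to all 16 libraries with a separate mean for each group (residual degrees of freedom 12). A gene was called where its p, adjusted over the tested genes by Benjamini-Hochberg, was below 0.05. Standard errors are the size of the log2 fold change over the square root of F. The p-values measure the spread between mice, and the common biological coefficient of variation was 0.0988. For correlations, a prior count of 2 was added before taking log-CPM. The procedure was tested on simulated data. The labels give no batch.

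Alternatives were RLE scaling, no low-count filter, DESeq2 1.42.0, a fit to only the groups compared, dropping the 4 mice whose Ttr was below 100 CPM, and dropping each mouse. Ttr as a covariate, with and without those 4 mice, was added after the data were seen. The members, lists, naming rule and alternatives were all chosen with earlier results of these data known. Fold changes are given for Ttr, for any member called and for the member with the smallest p in each comparison. Other genes named are members of the lists, of which some are shown as examples picked after their values were seen, or the 10 most correlated with the members. Some further list genes are not reported by name here.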

Additional observations from a re-analysis of the deposited data

Results flagged for a closer look

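In each group of 4 mice the gap between an extreme mouse and its nearest neighbour was divided by the range of the group, on log2 CPM, for each of the 33 genes (132 groups of values). In 14 of them it exceeded 0.829, Dixon's limit for 4 samples, which chance exceeds in about 1 of 20. Of the 14, 12 were vehicle 6 h mouse 14 as the lowest of its group, with ratios of Ttr 0.881, Igfbp2 0.896, Aqp1 0.837, Kcne2 0.838, Kcnj13 0.881, Slc4a5 0.832, Trpv4 0.841, Slc13a4 0.836, Mfrp 0.840, Cldn2 0.849, Col9a3 0.938 and Rdh5 0.931. These 12 are not separate events, since the genes move together. The others were beta-sitosterol 6 h mouse 20 as the highest of its group in Igfbp2 (ratio 0.911, 61.5 CPM) and beta-sitosterol 1 h mouse 9 as the lowest in Tmem72 (ratio 0.836, 75.6 CPM). Vehicle 1 h mouse 5, with the lowest Ttr of all, was in 0 of them.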

How the results depend on the processing

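No paired analysis was possible because the groups share no mouse numbers. The count of members called was 0 in each comparison under each alternative run, apart from the 1 (Msx1) over both times with Ttr as a covariate, where its log2 fold change was -0.37. The count of members with a Spearman correlation of at least 0.9 was 31 under each setting for which it was computed, and the log2 range of Ttr, 7.06, ran from 6.64 to 7.11. Counts of all genes called moved more. Over both times the 13 became 117 with RLE scaling, 96 without a filter, 1294 with DESeq2, 0 without the 4 low libraries, 440 with Ttr as a covariate, 0 with both changes, and 0 to 1206 with 1 mouse left out, the highest without vehicle 1 h mouse 5. At 1 h the 0 became 47 with DESeq2, 13 without the low libraries and 1 with Ttr as a covariate as well, and at 6 h 80 with DESeq2. At 6 h against 1 h in beta-sitosterol mice the 0 became 15 with DESeq2, 2 without the low libraries, 3 with Ttr as well, and 0 to 1 with 1 mouse left out. In vehicle mice the 0 became 89 with DESeq2, 9 without a filter, 7 without the low libraries, 2 with Ttr, 9 with both, and 0 to 7 with 1 mouse left out. The difference of the effects had 1 gene with both. Signs turned for Ttr (0.45) and Wfdc2 (0.12) at 6 h against 1 h in beta-sitosterol mice without the low libraries and for Msx1 at 6 h (0.014) with Ttr as well. With 1 mouse left out, the difference of the effects lay between -1.95 and 0.55 for Ttr and between -0.19 and 0.56 for Igf2, both lowest without beta-sitosterol 6 h mouse 20. DESeq2 gave no adjusted p to 28 members at 1 h, 23 at 6 h and 12 over both times. The causes were not tested.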
